A study of Mus musculus with 38 samples.

Results

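The genes described here encode the proteins of the mitochondrial ribosome. They were chosen by name alone, as every row of the deposited gene tables whose symbol is Mrpl or Mrps followed by a number and at most 1 letter. The rule took 78 of 46078 rows, which carry 77 symbols because Mrps23 is listed both on chromosome 11 and on a patch scaffold. Of these rows, 48 are named for the large subunit (Mrpl) and 30 for the small subunit (Mrps), and they lie on 17 chromosomes. In each comparison 76 members had enough counts to be tested. Mrpl53 (89 counts over all libraries) and the patch copy of Mrps23 (0 counts) did not. Mrpl53 shares 87.07% of its exonic bases with Ccdc142 on the same strand, and reads that fall on shared bases could not be assigned to either gene by the counting used.

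RNA was sequenced from mouse intestinal epithelial cells per the sample labels, whereas the series text speaks of colon tissue. All mice were of the C57BL/6 strain and carried floxed Hk2 alleles (Hk2 fl/fl). In KO mice a Cre recombinase driven by the Villin promoter, which is active in the intestinal epithelium, deletes Hk2, the gene of the glycolytic enzyme hexokinase 2. WT mice are littermates described as Hk2 fl/fl controls. Male mice aged 10 to 12 weeks, with both genotypes housed together, drank 1.5% dextran sodium sulfate (DSS), which injures the colonic epithelium and causes colitis. RNA was taken without it (day 0) and on days 3 and 7. The labels give ages of 9 to 11 or 86 to 92 weeks for mice used in basal phenotyping and do not say which of these, if either, applies to day 0. There were 4 WT and 5 KO libraries on day 0, 7 WT and 8 KO libraries on day 3, and 7 libraries of each genotype on day 7. Libraries are named as in the labels, by day, genotype and a number. Nothing in the labels states that each number is a separate animal, so p-values measure the spread between these libraries.

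Mitochondrial ribosomes translate the few proteins encoded by the mitochondrial genome, all of them subunits of the oxidative phosphorylation complexes. Their RNA components are transcribed inside the mitochondrion, while all of their proteins are encoded in the nucleus, made in the cytosol and imported. Colonic epithelial cells rely on mitochondrial oxidation of fatty acids such as butyrate. Promoters of nuclear genes for mitochondrial proteins often hold binding sequences of ETS family factors, NRF1 and YY1.

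Promoter sequences are shown because the members share features there that the choice by name did not use. RefSeq start sites of the GRCm38.p6 assembly gave windows for 68 of the 77 symbols, each of 300 bases, from 250 before the start to 50 after it. The sequence CCGGAAG, the core bound by ETS factors, was searched on both strands and found in 25 of 68 members (36.76%), against 9.93% of 27025 genes. Among cytosolic ribosomal protein genes the share was 40.0% (26 of 65). AAGATGGC, the core of the YY1 motif, was in 17.65% of members, 10.77% of cytosolic ribosomal protein genes and 3.19% of all genes. The palindromic NRF1 core, given by name only, was in 3 of 68 members (4.41%) and 1.07% of all genes. Of cytosolic ribosomal protein genes 2 of 65 (3.08%) had it. The E-box CACGTG (7.35% of members, 8.09% of all genes) and the CCAAT box CCAAT (39.71% and 41.06%) were at shares like those of all genes. Each motif was counted by itself on both strands, so matches of different motifs may overlap. The median GC content was 58.5% in member windows and 52.7% in all windows. A match is a description of the letters and not a measured site.

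Stretches of 30 bases around the ETS core are given for the 3 Mrps18 paralogs and for 6 other members whose levels are described below. Each is written 5′ to 3′ on the strand of its gene, with the core in capitals. It reads CCGGAAG, or CTTCCGG where it lies on the other strand.
Mrps18a: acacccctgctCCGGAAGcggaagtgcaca
Mrps18b: tgtcccgagcatgcgcagtcgctCTTCCGG
Mrps18c: gggtcacgtgaCTTCCGGcccgggaagcgc
Mrps12: aaggaggaaccCCGGAAGgggctggaggta
Mrpl33: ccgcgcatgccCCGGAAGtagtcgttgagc
Mrpl57: ccccagagagaCCGGAAGcagcgcgccgcc
Mrps27: tggtaggaccaCTTCCGGcggaggcgggct
Mrpl22: cttttccggtcCCGGAAGccggcctcggac
Mrpl3: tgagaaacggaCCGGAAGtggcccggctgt
In GRCm38 these lie at chr17:46110967-46110996 (plus strand), chr17:35916391-35916420 (minus), chr5:100798592-100798621 (plus), chr7:28741802-28741831 (minus), chr5:31613937-31613966 (plus), chr14:57826232-57826261 (plus), chr13:99344727-99344756 (plus), chr11:58171600-58171629 (plus) and chr9:105053238-105053267 (plus), in the order listed. The cores of Mrps18a, Mrpl22, Mrps27 and Mrpl3 begin 26, 53, 48 and 19 bases before the start site, and that of Mrps18b begins 43 bases after it. These start sites are RefSeq's and can differ from the gene starts in the deposited tables, and the stretch of Mrps18b lies wholly upstream of the start that those tables give. No core was found in the windows of Mrps2, Mrps6 or Mrpl12.

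Total counts were 10.5 to 60.6 M per library, with a median of 43.2 M, and the members together took 0.1251 to 0.3409% of them. Hk2 was at 347 ± 90.6 CPM (counts relative to a fixed library total, scaled by TMM) in WT day 0 and 76.5 ± 31.8 CPM in KO day 0 (SD). On day 7 it was at 332 ± 127 and 140 ± 71.5 CPM. On day 3 it was at 173 ± 47.1 and 144 ± 119 CPM, and the library labelled d3_KO_345 had 434.7 CPM, above every WT day 3 library. The log2 fold change of Hk2 in KO was -2.20 (adjusted p = 0.0331), -0.27 (0.802) and -1.25 (0.291) on days 0, 3 and 7. The highest WT libraries of days 3 and 7, d3_WT_381 and d7_WT_386, and the library d0_KO_32 had 41.7%, 26.6% and 61.7% of their counts on the mitochondrial genome. Day 0 libraries carry another prefix in their file names than all others, and their 2 mitochondrial ribosomal RNAs took 6.25 to 45.6% of the total, against 0.352 to 3.95% later. Defining epithelial markers were present in every group (10 of 10 tested in each comparison), and 18 immune markers summed to 22.6 to 187 CPM in the 24 libraries of days 0 and 3 and to 176 to 1707 CPM in the 14 of day 7.

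Per length, the members spanned a wide range of levels. In WT day 0 the highest was Mrpl42, a large subunit protein, at 60.01 ± 14.8 FPKM (SD, n = 4). Mrps16, a small subunit protein with a bacterial homolog, followed at 52.7 ± 12.0 FPKM. Mrpl12, a stalk protein of the large subunit that also binds the mitochondrial RNA polymerase, came next at 45.4 ± 10.1 FPKM. The ranges of these 3, taken as mean ± SD, overlap. They come from the same 4 libraries, and differences within a library were not tested. The lowest tested members were Mrpl23 at 1.92 ± 0.139, Mrps10 at 2.07 ± 0.231 and Mrps33 at 2.40 ± 0.612 FPKM. Their ranges overlap too, in the same 4 libraries. These ranks depend on annotated exonic length, which is 8079 bases for Mrps10, 666 for Mrpl42 and 566 for Mrps16. In mean log2 CPM over day 0, without regard to length, Mrps10 was at 3.99 and Mrpl42 at 5.28. Mrpl23 and Mrps33 were low in that measure too, at 1.94 and 1.95. Mrpl42 had the highest mean FPKM in all 6 groups, reaching 82.4 ± 11.3 FPKM in KO day 7. On days 3 and 7 Mrpl12 came directly after it in both genotypes.

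The large and small subunit members kept nearly the same proportion in the group means. The summed CPM of Mrpl genes was 2.02 to 2.07 times that of Mrps genes in the means of the 6 groups. In single libraries this ratio ran from 1.99 (d3_KO_388) to 2.20 (d7_WT_386), and d3_WT_381 had 2.16. The naming does not follow the particle exactly, since structures place the products of Mrps18a and Mrps30 in the large subunit. The sum over all members was 1679, 1803, 1978 and 2352 CPM in the WT day 0 libraries and 1836, 1880, 2005, 2139 and 2567 CPM in KO day 0. On day 3 the lowest, median and highest sums were 2217, 2534 and 3750 CPM in WT and 2185, 2373 and 2613 CPM in KO. On day 7 they were 2207, 2562 and 4035 CPM in WT and 2313, 2498 and 2725 CPM in KO. All 6 groups overlapped with at least 1 other, and the 2 highest libraries were both WT. The group means ± SD were 1953 ± 293 and 2086 ± 294 CPM on day 0, 2607 ± 528 and 2381 ± 159 CPM on day 3, and 2803 ± 647 and 2509 ± 171 CPM on day 7, WT before KO. In such bulk samples fewer cells of a type and less RNA per cell cannot be told apart.

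**Figure D1:**
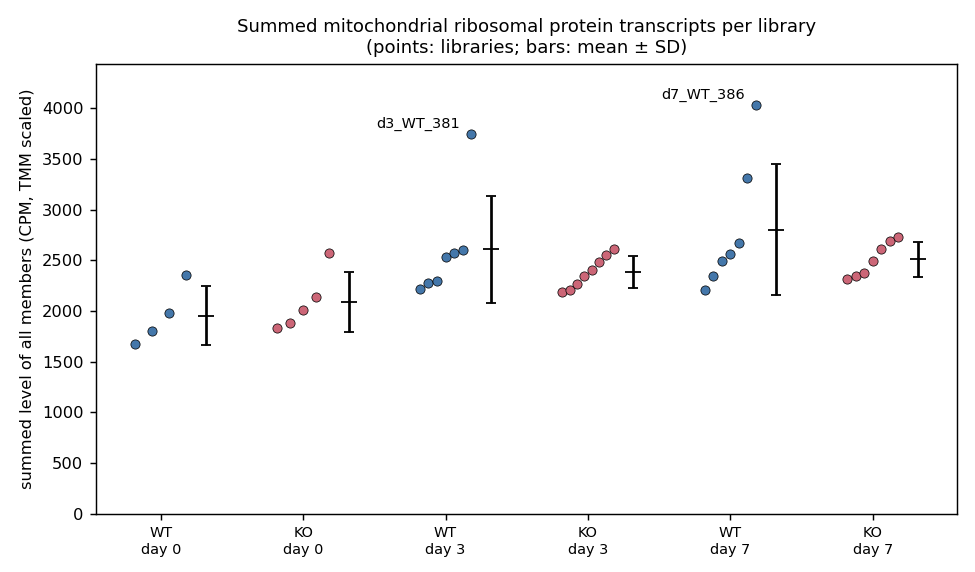
Summed level of all members in CPM (vertical axis) for each library (points) in the 6 groups, with mean ± SD (bars). WT day 3 holds 1 library at 3750 CPM (d3_WT_381) and WT day 7 holds 1 at 4035 CPM (d7_WT_386), while all KO libraries of days 3 and 7 lie between 2185 and 2725 CPM.

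Members moved together within a library. In d7_WT_386 and in d7_WT_431 (sum 3308 CPM) all 76 tested members were above their own mean over the 38 libraries. In d3_WT_381 it was 75 of 76, and the exception was Mrps18b. At the low end, d0_WT_41 and d0_WT_46 had 1 member of 76 above its own mean, and d0_KO_53 and d0_KO_60 had 2. These 3 libraries were also high in cytosolic ribosomal proteins, whose sum was 40853 CPM in d3_WT_381 against a group median of 25324 CPM, and 47192 and 38577 CPM in d7_WT_386 and d7_WT_431 against 27509 CPM. The part that RNA composition plays in these levels was not tested. Over all libraries the member with the largest spread was Mrps6 (SD of 0.55 in log2 CPM), followed by Mrps2 (0.43) and Mrpl12 (0.43), and the smallest were those of Mrps26 and Mrps17 (both 0.18). Without d3_WT_381 and d7_WT_386 the spread was 0.52 for Mrps6 and 0.44 for Mrps2. Mrpl12 then had 0.35, below Mrps34 (0.37) and Mrps18b (0.36), and Mrps17 (0.13) was below Mrps26 (0.16).

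**Figure D2:**
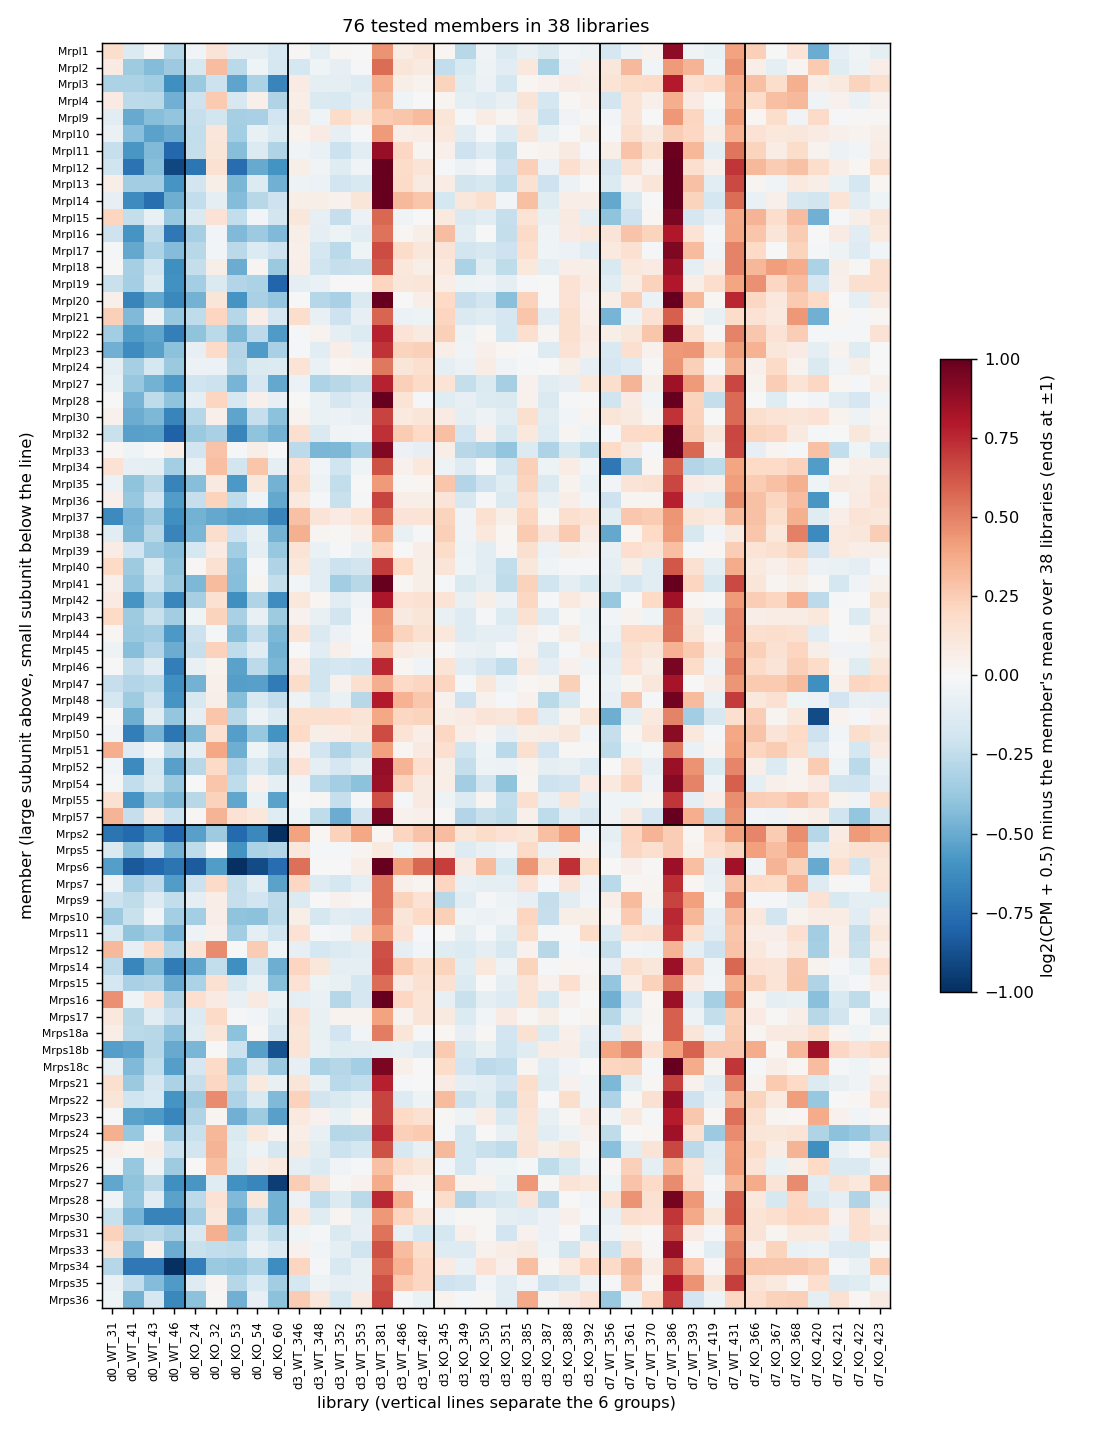
Colours give log2(CPM + 0.5) minus the mean of that member over 38 libraries, with 76 tested members in rows (large subunit above the line) and libraries in columns by group. Most members of d3_WT_381, d7_WT_386 and d7_WT_431 are above their means, most day 0 libraries are below, and the row of Mrps18b stays pale in d3_WT_381.

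The first comparison asked whether the members differ when Hk2 is deleted from the epithelium. No member passed an adjusted p under 0.05 in edgeR's quasi-likelihood test with Benjamini-Hochberg adjustment on day 0, 3 or 7. Few genes of any kind did so, 0.0335% of 14944 genes on day 0, 0.00647% of 15461 on day 3 and 0.00642% of 15584 on day 7. At an unadjusted p under 0.05 there were 1 member on day 0, 6 on day 3 and 10 on day 7. These are 1.32%, 7.89% and 13.2% of the 76 members, beside 10.5%, 7.88% and 12.9% of all genes. DESeq2's Wald test likewise called 0 members on each day. All 76 intervals of the genotype difference (95%) lay within 2-fold on each of the 3 days. Of the intervals of all genes, 80.3%, 89.4% and 83.2% did so on days 0, 3 and 7.

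The small differences of the members leaned 1 way on each day. On day 0, 63 of 76 were higher in KO (82.9%, against 49.4% of all genes) and 13 lower (50.6% of all genes), with a median log2 fold change of 0.09. On day 3, 73 of 76 were lower in KO (96.1%, against 51.1%), with a median of -0.12. On day 7, 70 of 76 were lower (92.1%, against 50.9%), with a median of -0.14. The median over all genes was -0.003, -0.005 and -0.005. Because members rise and fall together within a library, these shares follow few libraries. Without d3_WT_381 the day 3 median was -0.02, without d7_WT_386 that of day 7 was -0.06, and on day 0 it was 0.02 without d0_WT_46 and 0.20 without d0_WT_31. Cytosolic ribosomal proteins had medians of 0.18, -0.32 and -0.33 in the same comparisons, also with 0 genes called, and nuclear oxidative phosphorylation subunits 0.11, -0.16 and -0.24.

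The members with the smallest p-values show the size of what was seen. Mrps28, a small subunit protein, was at 15.5, 21.6 and 31.4 CPM (lowest, median, highest) in WT day 7 and at 12.8, 14.9 and 18.5 CPM in KO day 7. The KO median lies below the lowest WT library, and the groups overlap. Its log2 fold change was -0.49 (SE 0.15, adjusted p = 0.291, edgeR). Mrps9, a small subunit protein with a bacterial homolog, was at 40.97, 51.7 and 66.3 CPM in WT day 7 and 37.2, 39.3 and 45.9 CPM in KO day 7. It had the smallest p of the members on day 3 (-0.24, SE 0.09, adjusted p = 0.623) and the second smallest on day 7 (-0.34, SE 0.11, adjusted p = 0.291). Mrpl54, a large subunit protein, had -0.42 on day 7 (SE 0.14, adjusted p = 0.304). On day 0 Mrpl11, a large subunit protein of the stalk base, was at 15.1, 17.5, 19.3 and 22.5 CPM in WT and 19.5, 21.3, 22.3, 24.04 and 28.7 CPM in KO, which overlap. Its log2 fold change was 0.31 (SE 0.14, adjusted p = 0.473).

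An interaction term tested whether KO and WT differed by unequal amounts on different days. No member was called between days 7 and 3, 7 and 0 or 3 and 0, and of all genes 0%, 0.00531% and 0% were called. At an unadjusted p under 0.05 there were 0, 12 and 15 members (2.69%, 13.5% and 13.5% of all genes). DESeq2's Wald test called 0 members for each of the 3. The smallest p-values were those of Mrps28 between days 7 and 3 (-0.31, SE 0.21), Mrpl54 between days 7 and 0 (-0.57, SE 0.21, adjusted p = 0.239) and Mrps26, a small subunit protein, between days 3 and 0 (-0.40, SE 0.13, adjusted p = 0.225).

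**Figure D3:**
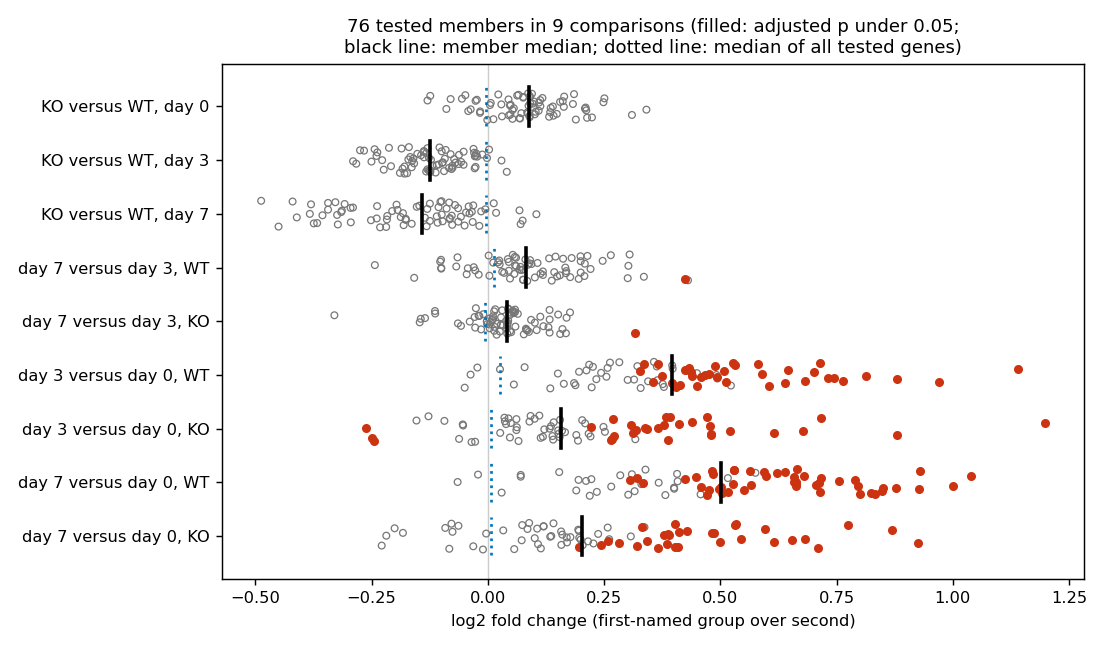
Log2 fold changes (horizontal axis) of 76 tested members in 9 comparisons (rows), filled where the adjusted p was under 0.05, with the member median (black line) and the median of all genes (dotted line). Genotype differences lie within 0.5 of 0 and none is filled, while the comparisons with day 0 are shifted to the right, with medians of 0.40 and 0.50 in WT and 0.16 and 0.20 in KO.

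Between days 3 and 7 of DSS, when many genes changed, 1 member did. Mrps18b was higher on day 7 in WT, the 1 member called among 76, where 10.6% of 15541 genes were called higher and 8.7% lower. It was also the 1 member called in KO, where 10.5% of 15568 genes were higher and 8.83% lower. Mrps18b encodes 1 of 3 mitochondrial proteins related to a single bacterial small subunit protein, and it belongs to the small subunit with the product of Mrps18c. The gene is at chr17:35910379-35916389 on the minus strand in the coordinates of the files (GRCm38), and 30.54% of its exonic bases are shared with Gm16279 on the opposite strand. Since the counting ignored strand, reads that lie in that stretch cannot be given to 1 of the 2 genes.

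In WT day 3 the lowest, median and highest levels of Mrps18b were 15.3, 15.7 and 18.5 CPM, and in WT day 7 they were 18.6, 22.2 and 25.5 CPM. Every WT day 7 library was above every WT day 3 library, as for 2.95% of all genes. The log2 fold change was 0.42 (SE 0.08, adjusted p = 0.00227, edgeR), and it was called in all 14 fits that left out 1 library. In KO the levels were 14.5, 15.7 and 20.2 CPM on day 3 and 17.04, 19.4 and 30.6 CPM on day 7. The KO groups overlap, and the highest value, 30.6 CPM, is that of d7_KO_420. The log2 fold change in KO was 0.32 (SE 0.11, adjusted p = 0.0479), and it was 0.21 (adjusted p = 0.0583) without d7_KO_420. It was called in 3 of 15 fits that left out 1 library. The change did not differ detectably between genotypes (interaction -0.09, 95% interval -0.36 to 0.18).

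Immune cell transcripts rose over the same days. Of the 18 immune markers, 15 were called higher on day 7 in WT and 18 in KO, with medians of 2.81 and 2.18 in log2 fold change. The library with the highest Mrps18b, d7_KO_420, also had the highest immune marker sum, 1707 CPM. In WT day 7 the order was otherwise. The 2 libraries with the highest immune sums, d7_WT_419 (1172 CPM) and d7_WT_356 (1062 CPM), had 20.3 and 22.2 CPM of Mrps18b, and the library with the highest Mrps18b, d7_WT_393 (25.5 CPM), had an immune sum of 223 CPM. In an edgeR fit with an immune score as a covariate Mrps18b was called in neither genotype. Its log2 fold change was 0.66 in WT (adjusted p = 0.232) and -0.21 in KO (adjusted p = 0.838). In WT the immune sums were at most 83.0 CPM on day 3 and at least 176 CPM on day 7. In KO they reached 187 CPM on day 3 and began at 176 CPM on day 7. Because immune content follows the day so closely, this fit cannot separate them. Whether immune cells carry part of this transcript was not tested.

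The paralogs Mrps18a and Mrps18c were not called between days 3 and 7. Mrps18a was at 26.6, 30.04 and 43.7 CPM in WT day 3 and at 27.8, 33.2 and 46.3 CPM in WT day 7, with a log2 fold change of 0.05 (95% interval -0.22 to 0.33). Mrps18c was at 14.98, 17.97 and 37.1 CPM in WT day 3 and 18.9, 22.3 and 38.8 CPM in WT day 7, with 0.34 (-0.13 to 0.80). Both overlap widely between the days, and for both the highest libraries are d3_WT_381 and d7_WT_386. In KO their log2 fold changes were 0.04 (-0.07 to 0.16) and 0.08 (-0.07 to 0.24). Mrps18c shares 23.23% of its exonic bases with another gene on the same strand. The change of Mrps18b was not tested against those of its paralogs.

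**Figure D4:**
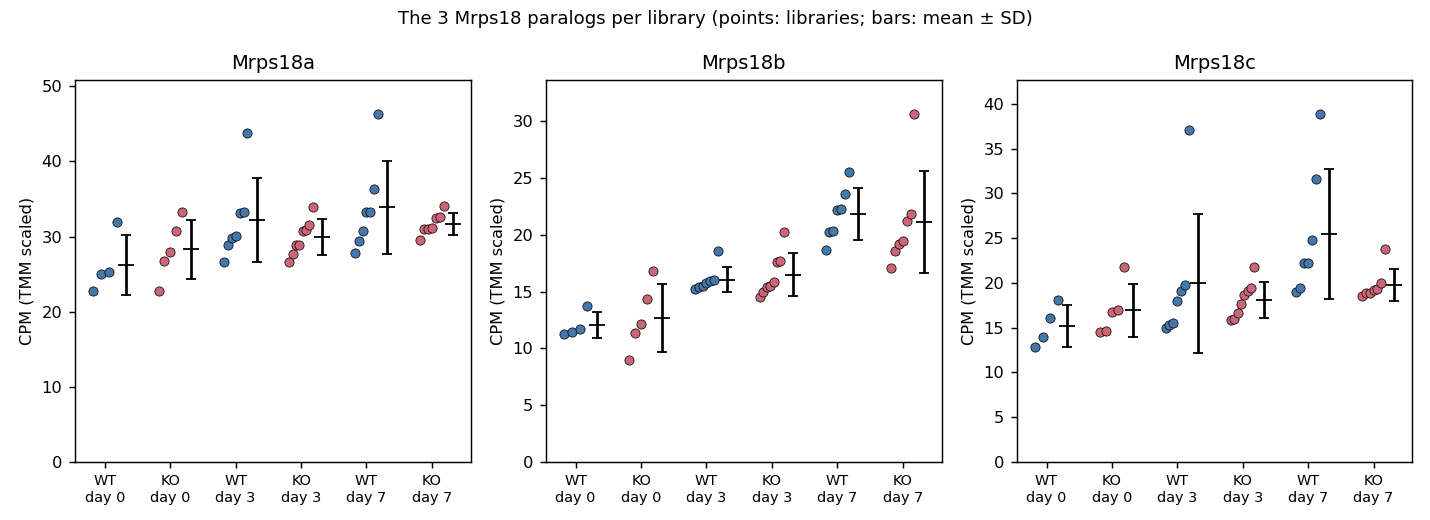
Levels of Mrps18a, Mrps18b and Mrps18c in CPM (vertical axes) in each library (points) by group, with mean ± SD (bars). For Mrps18b the WT day 7 libraries (18.6 to 25.5 CPM) lie above the WT day 3 libraries (15.3 to 18.5 CPM), whereas the other 2 paralogs overlap between the days in both genotypes.

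The rest of the members differed little between days 3 and 7. The median log2 fold change was 0.08 in WT and 0.04 in KO, beside 0.01 and -0.01 over all genes, and without d7_WT_386 the WT median was -0.03. All 76 intervals lay within 2-fold in both genotypes, as did 75.8% and 79.3% of the intervals of all genes. The median distance from an estimate to either end of its interval was 0.34 in WT and 0.16 in KO. Without d3_WT_381 the count of members called in WT was 4, without d7_WT_386 it was 2, and without d7_KO_420 the count in KO was 5. The shares of all genes called in these fits are not given.

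Compared with day 0, a larger share of the members than of all genes was called higher in each genotype on days 3 and 7. Most members did not pass the test in KO on either day or in WT on day 3. On day 3 in WT 37 of 76 were called higher and 0 lower, where 20.4% of 17152 genes were higher and 25.6% lower. On day 3 in KO 27 were higher and 3 lower (22.6% and 23.7% of 16010 genes). On day 7 in WT 48 were higher and 0 lower (27.8% and 29.2% of 17428 genes), and in KO 31 were higher and 0 lower (27.3% and 27.3% of 16367 genes). As shares of the 76 members the higher calls were 48.7%, 35.5%, 63.2% and 40.8%. The median log2 fold changes were 0.40 and 0.16 on day 3 and 0.50 and 0.20 on day 7, WT before KO, and the medians of all genes were between 0.006 and 0.025. In WT 25 members on day 3 (32.9%, against 12.9% of all genes) and 28 on day 7 (36.8%, against 18.5%) had all DSS libraries above all day 0 libraries. In KO they were 10 on day 3 (13.2%, against 11.1%) and 12 on day 7 (15.8%, against 17.9%), shares near those of all genes.

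Both subunits took part. On day 3 in WT 23 of 47 tested large subunit members and 14 of 29 small subunit members were called higher, and on day 7 in WT 32 and 16 were. In both genotypes 25 members were called higher on day 3 (32.9%, against 14.8% of 15923 genes tested in both) and 29 on day 7 (38.2%, against 21.6% of 16230 genes). The day 0 libraries differ from the others in their file prefix and their ribosomal RNA, as given above, so an effect of DSS cannot be told apart from one of the library series, and the 4 comparisons also share their day 0 libraries within a genotype. Called in either direction were 37 members on day 3 and 48 on day 7 in WT, and 30 and 31 in KO. In WT these are 48.7% and 63.2% of the members, beside 46% and 56.9% of all genes. In KO they are 39.5% and 40.8%, below the 46.3% and 54.6% of all genes. These counts also depend on single day 0 libraries. Without d0_WT_46 they were 22 on day 3 and 31 on day 7 in WT, and without d0_KO_32 they were 49 on both days in KO. Immune markers rose here too, and with the immune score as a covariate the counts were 35 (WT) and 11 (KO) on day 3 and 11 (WT) and 0 (KO) on day 7. Every day 7 library had a higher immune sum than every day 0 library, so those day 7 fits cannot separate immune content from day. With a score of small intestine markers they were 48 (WT) and 12 (KO) on day 3 and 44 (WT) and 13 (KO) on day 7. Shares of all genes called in these alternative fits are not given, so whether the members differ from other genes in this was not tested.

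**Figure D5:**
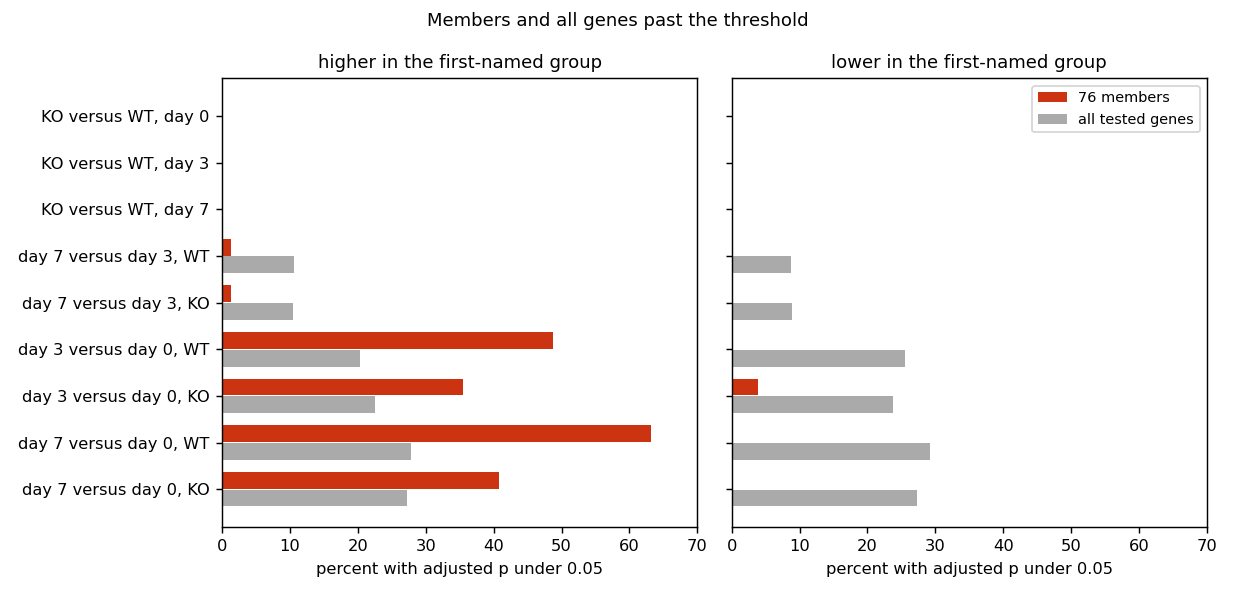
Percent of the 76 members (red) and of all tested genes (grey) with an adjusted p under 0.05, higher (left) or lower (right) in the first-named group of each of 9 comparisons. Red bars exceed grey bars among the higher genes in the 4 comparisons with day 0 (48.7% against 20.4% on day 3 in WT) and are shorter or absent in the other panel and in the 2 comparisons of day 7 with day 3.

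Mrps6 and Mrps2 had the largest log2 fold changes on day 3 in both genotypes. Mrps6, which has a bacterial homolog, was at 23.98, 24.9, 25.8 and 29.4 CPM in WT day 0 and at 18.6, 23.1, 24.1, 25.3 and 29.2 CPM in KO day 0. On day 3 its lowest, median and highest levels were 43.3, 58.0 and 86.8 CPM in WT and 38.9, 51.7 and 72.1 CPM in KO. Every day 3 library was above every day 0 library. The log2 fold changes on day 3 were 1.14 (SE 0.19, adjusted p = 0.000252) in WT and 1.20 (SE 0.15, adjusted p = 1.19e-05) in KO, and on day 7 they were 1.04 (SE 0.20) and 0.87 (SE 0.15), all called by edgeR. Mrps6 shares 15.1% of its exonic bases with Slc5a3, an inositol transporter gene, on the same strand.

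Mrps2, another small subunit protein with a bacterial homolog, was at 15.7, 15.8, 16.4 and 17.6 CPM in WT day 0 and 13.5, 15.8, 17.4, 18.7 and 21.4 CPM in KO day 0. On day 3 its levels were 27.9, 32.4 and 36.6 CPM in WT and 27.1, 30.9 and 36.8 CPM in KO. The days do not overlap in either genotype, and its exons are shared with no other gene. The log2 fold change was 0.97 (SE 0.10, adjusted p = 4.06e-06) in WT and 0.88 (SE 0.10, adjusted p = 6e-06) in KO. On day 7 it was 0.93 (SE 0.11) in WT and 0.93 (SE 0.15) in KO. Unlike most members, Mrps2 was not high in d3_WT_381, where its 27.9 CPM was the lowest of WT day 3.

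Other members of this kind were Mrps34 and Mrps27, small subunit proteins with no bacterial counterpart. Mrps34 rose by 0.88 (SE 0.18) in WT and 0.61 (SE 0.09) in KO on day 3, and by 1.00 and 0.65 on day 7. It shares 77.76% of its exonic bases with Mapk8ip3 and Nme3, so its counts are uncertain. Mrps27 rose by 0.72 (SE 0.12) in KO on day 3 and by 0.77 (SE 0.14) on day 7, and it shares 22.56% with a gene on the opposite strand. Of the large subunit, Mrpl37, also without a bacterial counterpart, was at 25.3, 25.7, 28.5 and 30.7 CPM in WT day 0 and between 42.0 and 58.6 CPM in WT day 3. The 2 groups are well apart, with a log2 fold change of 0.73 (SE 0.11, adjusted p = 0.000115), and KO showed 0.68 on both day 3 and day 7.

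Mrpl12 was at 53.7, 60.8, 75.6 and 88.3 CPM in WT day 0 and at 93.1, 106 and 211 CPM (lowest, median, highest) in WT day 3, the highest again being d3_WT_381. The groups do not overlap in WT, and in KO they do, because d0_KO_32 had 113 CPM. Its log2 fold changes on day 3 were 0.76 (SE 0.22, adjusted p = 0.0133) and 0.48 (SE 0.14, adjusted p = 0.00988). Mrpl14, Mrpl22, Mrpl23, Mrpl32 and Mrps14 completed the 10 members with the largest changes in WT on day 3, at 0.81, 0.68, 0.75, 0.71 and 0.70. On day 7 Mrps18b was among them, from 11.3, 11.5, 11.7 and 13.7 CPM in WT day 0, with 0.83 (SE 0.12) in WT and 0.71 (SE 0.17) in KO, as were Mrpl11 (0.85), Mrpl20 (0.82) and Mrps30 (0.80) in WT and Mrpl3 (0.60) in KO. Of the exonic bases of Mrps30, 37.8% are shared with a gene on the opposite strand. Mrps36, which carries a ribosomal name but is known as a subunit of the 2-oxoglutarate dehydrogenase complex, rose by 0.48 in WT and 0.37 in KO on day 3.

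In KO on day 3 there were 3 members that fell. Mrps12, a small subunit protein near the decoding site, was at 22.9, 23.8, 25.9, 28.3 and 33.0 CPM in KO day 0 and between 19.4 and 24.4 CPM in KO day 3. Its log2 fold change was -0.26 (SE 0.09, adjusted p = 0.0242). The large subunit members Mrpl57 and Mrpl33 had -0.25 (SE 0.09, adjusted p = 0.03) and -0.24 (SE 0.09, adjusted p = 0.0409). All 3 overlap between the days, and none of the 3 was called in WT. They were called in 11, 9 and 5 of 13 fits that left out 1 library. Without d0_KO_32 none was called, with log2 fold changes of -0.14, -0.14 and -0.13 and adjusted p of 0.155, 0.156 and 0.199. The promoter windows of all 3 hold the ETS core shown above, as do 5 of the 24 windows among the 27 members that rose. Among all 68 members with a window the share was 36.76%. These 3 were set beside the motif after their values were seen, and no test was made.

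Other genes of mitochondrial translation were called higher and lower, where of all genes on day 3 20.4% were higher and 25.6% lower in WT and 22.6% and 23.7% in KO. Of 6 mitochondrial ribosomal proteins under other symbols, 2 were called higher on day 3 in WT and 1 in KO, among them Dap3, a GTP-binding small subunit protein (0.42 and 0.21). Of 14 tested translation factors 3 were higher and 2 lower in WT on day 3, and 7 and 2 in KO. Taco1, an activator of translation of a cytochrome oxidase subunit, had the largest rise, 0.66 in WT and 0.82 in KO, and Tufm, the elongation factor that delivers aminoacyl-tRNA, rose by 0.33 in WT. Of 23 ribosome assembly factors 9 were higher and 1 lower in WT on day 3, and 6 and 1 in KO. Among them Noa1, a GTPase, rose by 0.68 and 0.56 and Mtg1, another GTPase, by 0.66 and 0.49. Of 20 mitochondrial aminoacyl-tRNA synthetases and related enzymes 4 were higher and 4 lower in WT, and 4 and 5 in KO, which are shares near those of all genes, as is the share of translation factors called higher in WT. Among 12 transcription regulators of mitochondrial genes Myc had 1.29 in WT and 0.83 in KO on day 3, and Pprc1, a coactivator, had 0.88 and 1.27, all called. Of the transcripts that mitochondrial ribosomes translate, 7 of 10 tested were higher in WT on day 3 and 6 of 11 in KO, while of the 2 mitochondrial ribosomal RNAs 1 was lower in WT and 2 in KO. The others, mt-Atp8 and mt-Nd4l in both genotypes and mt-Atp6 in WT, had at most 3 counts in every day 0 library and were not tested, and the library series differs in these comparisons too. In the same fits cytosolic ribosomal proteins had 69 of 85 called higher and 1 lower in WT on day 3 (median 0.65), and nuclear oxidative phosphorylation subunits 21 of 75 higher and 1 lower (median 0.36).

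Between days 3 and 7 some genes of these lists were called. Of all genes, 10.6% were called higher and 8.7% lower in WT, and 10.5% and 8.83% in KO. Ppargc1a, a coactivator of mitochondrial gene expression, fell by 0.81 in WT (SE 0.26, adjusted p = 0.0411) and by 0.84 in KO (SE 0.22, adjusted p = 0.0114), where 1 of 12 regulators was called in each genotype. Iars2, the mitochondrial isoleucyl-tRNA synthetase, rose by 0.33 in WT (1 of 20), and Mettl15, a methyltransferase of mitochondrial ribosomal RNA, fell by 0.54 in KO (1 of 23). Of 11 tested proteins encoded in mitochondria, 3 were called lower in KO, a larger share than that of all genes, and 0 in WT. Their median was -0.39 in KO and -0.16 in WT.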

How the data were processed

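The authors deposited raw counts per gene, 1 table for each of 2 lanes of 38 libraries, made with featureCounts 1.6.2 without regard to strand per the file headers. The submitters' processing notes list Trim Galore, STAR, featureCounts 1.5.2 and GRCm38, and per the labels a stranded mRNA kit was used. The header's command sets no option for multi-mapping or overlapping reads. Lanes were summed. Genes were tested with the edgeR 4.0.16 quasi-likelihood test (R 4.3.3) with TMM scaling and its filter by group on the compared groups, with Benjamini-Hochberg adjustment over all genes tested and calls at an adjusted p under 0.05. CPM use TMM-scaled totals, FPKM divide them by exonic length, and each SE is the absolute fold change over the root of its F. A level of 3 counts is 0.0495 to 0.286 CPM, which covers counting error only.

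The members, the gene lists and the tests were chosen with earlier results of these data known. Named members were up to 10 called per direction by size with a mean log2 CPM of at least 2, or else the 3 smallest p, the 3 highest and 3 lowest by FPKM in WT day 0, the Mrps18 paralogs, Mrps36 and Mrpl12. From other lists up to 3 called genes per direction could be named, and not all are. Mrps17, the ranks by spread and the untested mitochondrial genes lie outside this rule and were chosen after their values were seen. Alternatives were DESeq2 1.42.0 size factors, the DESeq2 Wald test, only lane 1, no low-count filter or one on mean CPM (1 or more), immune and small intestine scores as covariates, all libraries in 1 fit, removal of mitochondrial genome genes and leaving out each library. The scripts were tested on simulated data.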

Additional observations from a re-analysis of the deposited data

Results flagged for a closer look

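Libraries were compared with the rest of their group for 15 measures in 6 groups, 90 in all, by the gap between an extreme library and its neighbour. This marked 15, where chance would mark about 1 in 20 of independent measures. These measures are not independent, because the sums contain the members and members move together. Several of the single members were also named for their values in these data. The count of 15 is therefore not read as an excess. In WT day 3 the library d3_WT_381 stood above the others in 9 measures. They were the summed members (3749.9 CPM), the large (2564.1) and small (1185.8) subunit sums, the ratio of these sums (2.16), Mrps18a (43.7 CPM), Mrps18c (37.1), Mrpl11 (48.6), Mrpl12 (211) and Mrpl37 (58.6). Mrps18b was high in d0_WT_43 (13.7 CPM), in d3_WT_346 (18.5) and in d7_KO_420 (30.6), and Mrps18c in d7_KO_420 (23.8). Mrpl12 was high in d0_KO_32 (113 CPM) and Mrps36 in d3_KO_385 (15.1 CPM). d3_WT_381 and d0_KO_32 are also the libraries with the largest shares of counts on the mitochondrial genome, and the part of that in these levels was not tested.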

How the results depend on the processing

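Counts here are of members called in either direction, without the share of all genes called in the same fit. Genotype differences and interactions gave 0 called members under every alternative run. For day 7 against day 3 in WT the count was 0 with the immune score as a covariate and 3 in a fit of all 38 libraries, beside 1, and 1 to 4 when 1 library was left out. In KO it was 2 with DESeq2 size factors and with the DESeq2 Wald test, 0 without a filter, on lane 1 alone, with the immune or small intestine score or without mitochondrial genome genes, and 0 to 5 with 1 library left out. With the immune score the median was 0.71 in WT and -0.0405 in KO, and Mrps18b in KO was -0.21. Immune content closely follows the day, as given above, so these fits cannot separate them. Against day 0, counts with the immune score were 11 (day 3, KO), 11 (day 7, WT, median 0.98) and 0 (day 7, KO), and with the small intestine score 12 (day 3, KO) and 13 (day 7, KO). With 1 library left out they were 22 to 50 (day 3, WT), 24 to 49 (day 3, KO), 31 to 56 (day 7, WT) and 25 to 49 (day 7, KO). The WT median of day 7 against day 3 ranged from -0.0331 to 0.16 and the interaction median of days 7 and 3 from -0.13 to 0.0669. Without mitochondrial genome genes, mean sums were 2344 (WT day 0), 2451 (KO day 0), 3215 (WT day 3), 2933 (KO day 3) and 3036 CPM (KO day 7). Those sums are relative to smaller library totals, because the removed genes no longer count in them. Causes of the other changes were not tested. Of 1453 alternative values of 63 named results, 1385 kept direction and call, 67 lost the call and 1 reversed. At n = 4 and 5 the day 0 groups limit precision. No paired analysis was possible because the numbers in the labels differ between groups.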
